A study of Mus musculus with 6 samples.

Results

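Ctla2a, 3 cystatins (Csta1, Cst3 and Cst6) and 5 cysteine cathepsins (Ctsb, Ctsc, Ctsh, Ctsk and Ctsl) were followed in whole corneas of mouse pups. These 9 genes, of 19938 with a probe set of their own, were read from the probe set that the array annotation pairs with exactly 1 of the 9 symbols, and each gene had 1 such probe set. The group was chosen on measured values, since Ctla2a was among the 3 probe sets past the threshold when DN-Clim was compared with WT (the others were Emcn and Psca), and the other 8 genes were added around it by family. The differences between the groups given below for the 9 genes are therefore a description and carry no test. RNA came from 3 DN-Clim samples and 3 WT littermate samples at postnatal day 3, each on an Affymetrix Mouse Gene 1.0 ST array. DN-Clim mice carry a transgene, named K14-DN-Clim in the labels, for a dominant negative CLIM protein, a cofactor of LIM-domain transcription regulators. K14 stands for the promoter of keratin 14, which is active in basal cells of stratified epithelia. Which cells of these corneas made the transgene product was not tested here. The labels do not say how many corneas or animals made up a sample, so p-values cover only sample-to-sample spread, part of which could be technical.

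Cysteine cathepsins are papain-like proteases that are made as inactive proenzymes and work mostly in the acid lumen of lysosomes. A propeptide folds over the active site until it is cut off, and cystatins bind the mature enzyme tightly and reversibly. CTLA2A, found in mouse activated T cells and mast cells, resembles the propeptide of cathepsin L without a protease attached, and inhibits enzymes of the cathepsin L type. In stratified epithelia the balance between cathepsin L and cystatins bears on cornification, and in connective tissue cathepsin K degrades collagen.

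Values are log2(intensity + 16), and a difference is DN-Clim minus WT on that scale, which understates changes of dim genes. The 6 arrays had median intensities between 230.8 and 280.9. DN-Clim replicates 1 and 2 stood high in lens genes: the mean level of 10 lens genes was 11.41 and 11.75 on them and 7.95 on DN-Clim replicate 3, against 8.34, 8.48 and 8.97 in WT. Krt12, the keratin of corneal epithelium, read 11.04 to 11.95 on DN-Clim arrays and 11.21 to 11.55 on WT arrays. Kera, the keratocan of keratocytes, read 11.96 to 12.75 on DN-Clim arrays and 12.56 to 13.09 on WT arrays, so that both defining markers of the labelled tissue were bright on all arrays. Whole tissue was measured, so fewer cells of a type and less RNA per cell cannot be told apart. DN-Clim replicate 3 correlated with DN-Clim replicates 1 and 2 at 0.928 and 0.90 over all tested probe sets, and with the WT arrays at 0.949 to 0.962. DN-Clim replicates 1 and 2 correlated with each other at 0.964. With the WT arrays replicate 1 correlated at 0.944 to 0.965 and replicate 2 at 0.918 to 0.957. Each gene is therefore given array by array, and results that rest on some of these arrays are given with and without them.

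Because Ctla2a has a close relative, Ctla2b, next to it in the genome, the promoter windows of the pair are shown first, from RefSeq on build GRCm38.p6, 250 bases before to 50 after the annotated start. Both genes lie on the minus strand of chromosome 13, and the windows span chr13:60936576-60936875 for Ctla2a and chr13:60897398-60897697 for Ctla2b. Capitals mark every match to TATAAA (the TATA box), TAATTA (the core bound by LIM homeodomain factors), CACGTG (the E-box that lysosomal regulators bind) or AGATAA (the GATA site), searched on both strands.
Ctla2a: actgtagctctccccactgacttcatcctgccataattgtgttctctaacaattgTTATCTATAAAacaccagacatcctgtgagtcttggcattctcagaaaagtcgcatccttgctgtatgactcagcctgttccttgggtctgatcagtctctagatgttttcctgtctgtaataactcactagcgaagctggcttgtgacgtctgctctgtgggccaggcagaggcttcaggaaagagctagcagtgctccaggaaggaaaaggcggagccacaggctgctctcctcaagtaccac
Ctla2b: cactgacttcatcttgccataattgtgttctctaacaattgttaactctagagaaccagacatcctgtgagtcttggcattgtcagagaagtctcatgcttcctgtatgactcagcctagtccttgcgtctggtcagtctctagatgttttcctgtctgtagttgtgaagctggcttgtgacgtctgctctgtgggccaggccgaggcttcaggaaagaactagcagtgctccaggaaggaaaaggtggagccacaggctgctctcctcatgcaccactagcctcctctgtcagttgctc
The 2 windows were 91.7% identical over 278 aligned bases, and 79.2% identical with gap columns counted. The Ctla2a window held a TATAAA match, which starts at position -190 from the annotated start, and an AGATAA match on the opposite strand at position -195 that overlaps it by 1 base. The Ctla2b window held no match. A match is a run of letters and not evidence of a bound site. TATAAA was found in 13.6% of all 32851 promoter windows, AGATAA in 11.2%, CACGTG in 7.15% and TAATTA in 5.29%. A second Ctla2a window, from a start further downstream, holds the same TATAAA.

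Ctla2a was low on every DN-Clim array. It read 6.99, 7.30 and 6.96 in DN-Clim replicates 1, 2 and 3, against 9.09, 8.78 and 9.11 in WT replicates 1, 2 and 3. The highest DN-Clim value lay 1.48 below the lowest WT value, while the range within each group was 0.34 and 0.33. The mean was 7.08 ± 0.19 (SD, n = 3) in DN-Clim and 8.99 ± 0.19 (SD, n = 3) in WT, a difference of -1.91 (SE 0.193), or 26.6% of the WT level. In the units of the deposited table these are intensities of 111.0, 141.2 and 108.6 in DN-Clim and 529.8, 423.3 and 537.0 in WT. The deviations from the WT mean were -2.01 and -1.70 on the 2 arrays high in lens genes and -2.03 on DN-Clim replicate 3.

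Ctla2b, a gene of the same small family, read 7.74, 7.52 and 7.70 in DN-Clim corneas and 8.12, 7.97 and 7.39 in WT corneas, and the groups overlapped. The Ctla2b difference of -0.17 (SE 0.224) had a limma adjusted p of 0.999 over all tested probe sets. Its deviations from the WT mean were -0.079, -0.30 and -0.13 on DN-Clim replicates 1, 2 and 3. The difference between the responses of the 2 genes was not tested. How far a probe set of one of these 2 genes also takes up transcripts of the other is not given in the sources used here. RefSeq places a run of placental cathepsin genes and trophoblast genes around the pair (Ctsll3, Tpbpb, Tpbpa, Ctsj, Ctsq, Ctsr, Cts6, Cts8 and Cts7), picked here for their place in the genome after the Ctla2a value was known. With Ctla2b these are 10 genes, whose differences ran from -0.35 to 0.22 with a median of -0.076, and 1 of the 10, Tpbpa, had DN-Clim arrays that all lay below WT. That order held for 6.95% of all tested probe sets, so nothing is read from it, and Tpbpa was dim, at 5.66 to 6.04 in DN-Clim.

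**Figure D1:**
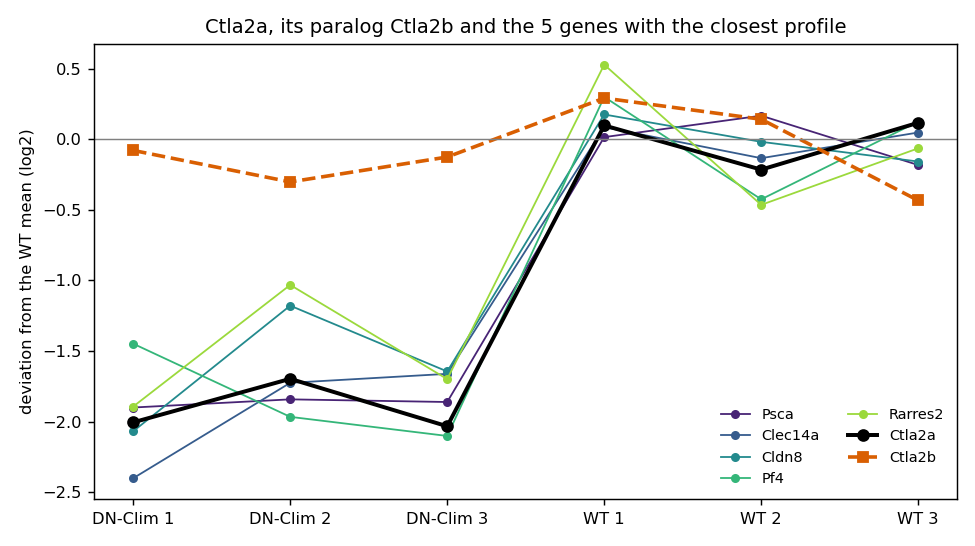
Deviation of log2(intensity + 16) from the WT mean of each gene (vertical axis) on the 3 DN-Clim and the 3 WT arrays (horizontal axis); a line joins the values of 1 gene and replicates have no order. Ctla2a (thick black) lies between -2.03 and -1.70 on DN-Clim arrays, the 5 genes of closest profile spread more widely, from -2.40 (Clec14a) to -1.03 (Rarres2), and Ctla2b (dashed) lies between -0.30 and -0.079.

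The genes whose profile came closest to that of Ctla2a were sought among 17586 named genes by the root mean square difference between deviations from each gene's own mean over the 6 arrays. The 5 closest were Psca, a glycolipid-anchored protein of epithelial surfaces (0.22), Clec14a, a lectin of endothelium (0.23), Cldn8, a claudin of tight junctions (0.27), Pf4, a platelet chemokine (0.28), and Rarres2, the precursor of chemerin (0.33). Clec14a read 5.64, 6.32 and 6.38 in DN-Clim and 8.13, 7.91 and 8.09 in WT. Pf4 read 7.85, 7.34 and 7.20 in DN-Clim and 9.60, 8.88 and 9.43 in WT, and neither gene overlapped between groups. Likeness was scored on the same arrays that chose Ctla2a, so that genes low on all 3 DN-Clim arrays come first by construction.

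Csta1 encodes a stefin A, a cystatin that stays in the cytosol. It read 5.73, 8.03 and 6.66 in DN-Clim replicates 1, 2 and 3, against 8.48, 8.68 and 8.84 in WT. Every DN-Clim value was under every WT value, but the DN-Clim arrays ranged over 2.30, against 0.36 in WT. The mean was 6.80 ± 1.16 (SD, n = 3) in DN-Clim and 8.67 ± 0.18 (SD, n = 3) in WT, a difference of -1.86 (SE 0.474). Of the 2 arrays high in lens genes, replicate 1 was lowest and replicate 2 highest among the DN-Clim arrays. Without DN-Clim replicate 1 the difference was -1.32, and without DN-Clim replicate 2 it was -2.47.

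Csta1 belongs to the mouse stefin A cluster on chromosome 16, where several near-identical genes lie side by side and probe sets may share transcripts. Csta2 did not overlap between groups either, at 5.04, 4.37 and 5.79 in DN-Clim and 6.60, 6.03 and 5.93 in WT (difference -1.12, SE 0.346, adjusted p = 0.693). Csta2 was dim, however: DN-Clim replicate 2 had an intensity of 4.65, under the 16 added to each value, so its difference is uncertain. Stfa3 read 9.57, 8.55 and 7.94 in DN-Clim and 9.97, 9.58 and 9.43 in WT, with an overlap at DN-Clim replicate 1 (difference -0.98, SE 0.369, adjusted p = 0.793). Csta3 and Stfa2 overlapped as well, with differences of -0.57 (adjusted p = 0.859) and 0.17 (adjusted p = 0.999), and are named as neighbours of Csta1 with their values known. The promoter windows of Csta1, at chr16:36131140-36131439 on the minus strand, and Csta2, at chr16:36221312-36221611 on the plus strand, are given because both genes were low on all DN-Clim arrays; capitals would mark the 4 motifs above.
Csta1: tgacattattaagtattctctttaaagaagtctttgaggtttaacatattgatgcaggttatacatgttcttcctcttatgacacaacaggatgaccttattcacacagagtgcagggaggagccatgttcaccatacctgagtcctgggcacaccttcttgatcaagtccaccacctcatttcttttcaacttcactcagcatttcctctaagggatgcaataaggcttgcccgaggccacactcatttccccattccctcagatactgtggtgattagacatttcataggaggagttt
Csta2: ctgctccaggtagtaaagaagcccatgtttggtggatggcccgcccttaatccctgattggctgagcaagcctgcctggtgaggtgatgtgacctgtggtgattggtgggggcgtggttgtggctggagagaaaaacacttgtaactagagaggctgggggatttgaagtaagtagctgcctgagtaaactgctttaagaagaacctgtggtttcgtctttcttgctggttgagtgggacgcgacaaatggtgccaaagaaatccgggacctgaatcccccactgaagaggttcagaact
Neither window held a match, and they were 63.0% identical over 243 aligned bases. The same alignment gave 57.5% over 268 bases for Ctla2a and Csta1, a pair from different families. With gap columns counted, identity was 42.9% for Csta1 and Csta2 and 46.4% for Ctla2a and Csta1. The order of the pairs thus depended on the measure, and no likeness of the Csta1 and Csta2 windows is read from it.

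Cst3, the secreted cystatin C found in most body fluids, was the 1 gene of the 9 whose mean was higher in DN-Clim. It read 11.65, 12.16 and 11.49 in DN-Clim and 11.52, 11.60 and 11.96 in WT, and the groups overlapped. The difference of 0.072 (SE 0.23) was smaller than the SD of 0.35 and 0.24 within DN-Clim and WT. It turned to -0.21 with DN-Clim replicate 3 alone and to -0.12 without DN-Clim replicate 2. Its closest profiles were those of Fbxo30, an F-box protein (0.035), and Pole2, a subunit of DNA polymerase epsilon (0.041).

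Cst6, cystatin M/E, inhibits cathepsin L and legumain and is needed for the skin barrier in mice. It read 7.04, 6.73 and 7.41 in DN-Clim and 7.32, 7.26 and 7.36 in WT, with the 2 arrays high in lens genes below WT and DN-Clim replicate 3 above it. Cst6 was dim, with intensities of 90.3 to 153.7 where the array medians were 230.8 to 280.9, so its small differences are uncertain. The difference was -0.26 (SE 0.21), and 0.090 with DN-Clim replicate 3 alone. It was -0.095 without DN-Clim replicate 2 and -0.43 without DN-Clim replicate 3. The closest profiles were those of Htr3b, a serotonin receptor subunit (0.032), and Reg1, a secreted lectin (0.041). Lgmn, the legumain that cystatin M/E also binds, read 9.60, 10.26 and 9.60 in DN-Clim and 9.49, 9.18 and 9.80 in WT (difference 0.33, SE 0.249, adjusted p = 0.999).

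**Figure D2:**
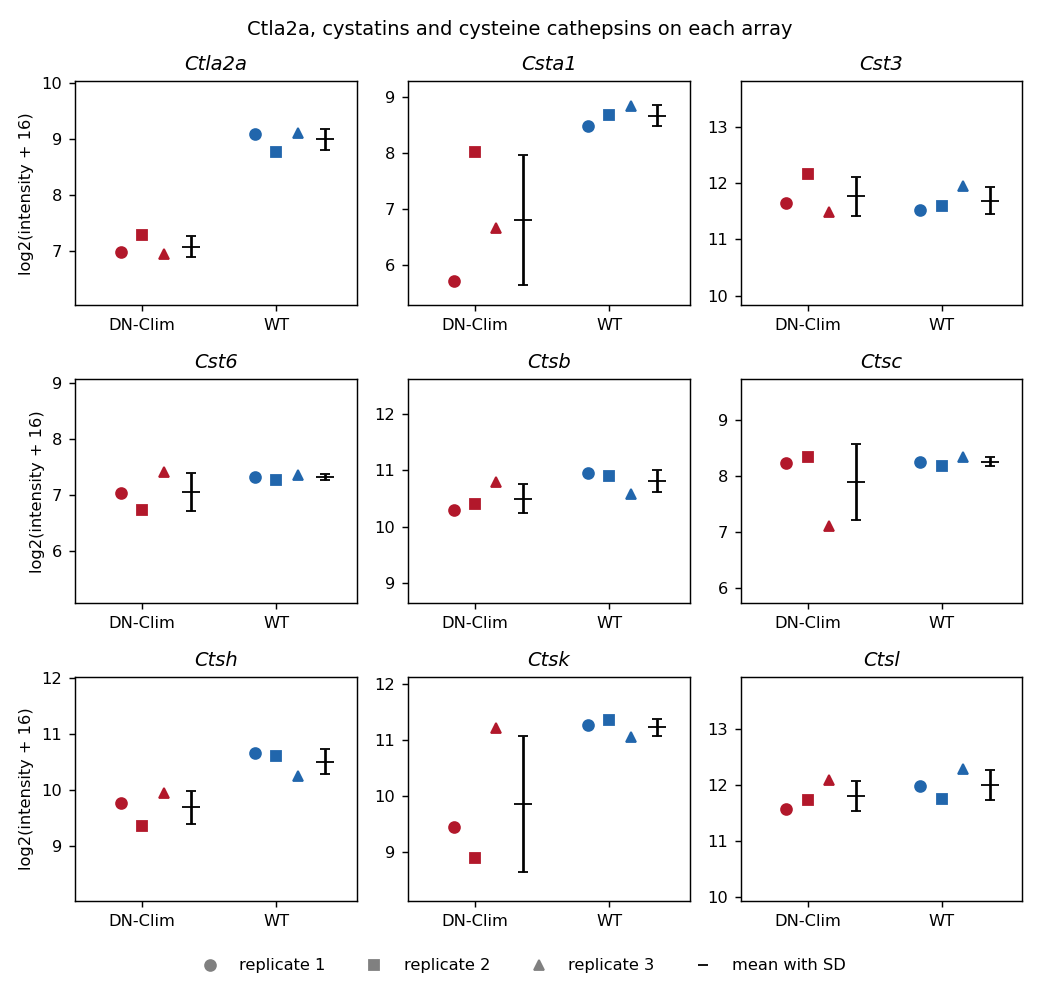
Log2(intensity + 16) of the 9 genes (vertical axes, each spanning 4 units) in DN-Clim (left, red) and WT (right, blue), with a marker for each replicate and the mean with SD beside it. Ctla2a, Csta1 and Ctsh do not overlap between the groups, and in Csta1, Ctsk and Ctsc the DN-Clim arrays are spread much wider than the WT arrays.

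Among the proteases, Ctsk had the largest difference. Cathepsin K is the collagen-degrading cathepsin of osteoclasts and of some fibroblasts. It read 9.45 and 8.89 in DN-Clim replicates 1 and 2, 11.21 in DN-Clim replicate 3, and 11.27, 11.35 and 11.05 in WT. Replicate 3 lay within the WT range, and the deviations of DN-Clim replicates 1 and 2 from the WT mean were -1.77 and -2.33. The difference of -1.37 (SE 0.492) over all arrays became -2.05 (SE 0.205) without replicate 3, -0.89 without replicate 2 and -0.010 with replicate 3 alone. With the lens signal as a covariate it was -0.37 (SE 0.179).

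Stromal markers were mixed. Of 10 keratocyte and stroma markers 8 were below 0 in difference, all 8 with overlapping groups, and the summed intensity was 21486, 17708 and 37255 in DN-Clim replicates 1, 2 and 3, against 37791, 40563 and 37494 in WT. The sum is weighted to the brightest genes and, like Ctsk, was low on DN-Clim replicates 1 and 2. Aldh1a1, a retinaldehyde dehydrogenase, lay above every WT array, at 10.66, 11.21 and 10.09 in DN-Clim and 9.20, 9.62 and 9.68 in WT, and so did Ptgds, a prostaglandin D synthase (difference 0.73). Thy1 was lowest among DN-Clim arrays on replicate 3, at 8.40, where Ctsk was highest. These 3 are named after their values were seen, and the part of the list in the Ctsk values was not tested. Of 8 osteoclast markers none separated the groups in either direction, and the mean deviations were -0.15, -0.53 and 0.31. The genes closest in profile to Ctsk were Entpd1, an ectonucleotidase (0.066), and Itgbl1, an integrin beta-like secreted protein (0.081). Entpd1 read 8.30, 7.55 and 9.97 in DN-Clim and 9.97, 10.10 and 9.72 in WT.

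Ctsh encodes cathepsin H, which acts mainly as an aminopeptidase. It was lower on every DN-Clim array, at 9.76, 9.36 and 9.94, than on any WT array, at 10.66, 10.61 and 10.24. The gap between the groups, 0.30, was smaller than the range within WT, 0.42. The difference was -0.82 (SE 0.218), or 56.8% of the WT level, and -0.56 with DN-Clim replicate 3 alone. The closest profiles were those of Pheta2 (0.079) and Nfatc4, a calcineurin-regulated transcription factor (0.083).

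Ctsc was low on the DN-Clim array on which Ctsk was not. Cathepsin C is the dipeptidyl peptidase that activates granule serine proteases of neutrophils, mast cells and cytotoxic cells. It read 8.24 and 8.33 in DN-Clim replicates 1 and 2 and 7.12 in replicate 3, against 8.26, 8.17 and 8.34 in WT. DN-Clim replicate 3 was the only DN-Clim array outside the WT range, with a deviation of -1.14 from the WT mean. The difference was -0.36 (SE 0.307) over all arrays, -0.58 without DN-Clim replicate 2 and 0.030 without replicate 3. The closest profiles were those of Trnau1ap, a selenocysteine tRNA binding protein (0.082), and Mrpl36, a mitochondrial ribosomal protein (0.085). Of 9 genes for cathepsin C substrates and their relatives, 0 passed and 5 were below 0, and the smallest p was that of the mast cell chymase Cma1 (-0.45, adjusted p = 0.995). On replicate 3 the mean deviation of the 9 substrates was 0.31.

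Ctsb and Ctsl, the broadly expressed endopeptidases of lysosomes, had small mean differences. Ctsb read 10.30, 10.40 and 10.79 in DN-Clim and 10.96, 10.90 and 10.59 in WT (difference -0.31, SE 0.206). Ctsl, the enzyme that CTLA2A resembles in its propeptide, read 11.57, 11.72 and 12.09 in DN-Clim and 11.97, 11.74 and 12.27 in WT (difference -0.20, SE 0.219). The Ctsl difference was -0.089 without DN-Clim replicate 1, -0.35 without DN-Clim replicate 3, -0.33 without WT replicate 2 and -0.062 without WT replicate 3. Both genes overlapped between groups, and both were lower on the arrays high in lens genes than on DN-Clim replicate 3, which differed from the WT mean by -0.022 for Ctsb and 0.093 for Ctsl. The closest profiles were those of Slc39a7, a zinc transporter (0.040), and Mir100, a microRNA gene (0.043), for Ctsb, and of Sh3bp5l (0.063) and Amigo2, an adhesion protein (0.064), for Ctsl. The Ctsl promoter window held a CACGTG match at position -236, and those of Cst3, Ctsc and Ctsk held none of the 4 motifs. Windows for Cst6, Ctsb and Ctsh are not used here.

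**Figure D3:**
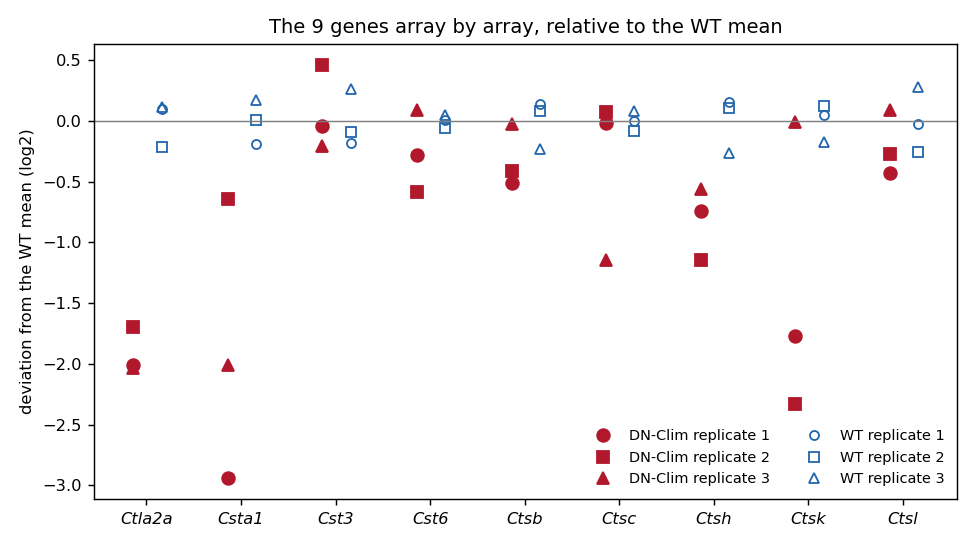
Deviation from the WT mean in log2 units (vertical axis) of the 9 genes (horizontal axis) on each DN-Clim array (filled red) and each WT array (open blue). Ctla2a is low on all DN-Clim arrays within 0.34, Ctsk is low on replicates 1 and 2 (-1.77 and -2.33) and not on replicate 3 (-0.010), and Ctsc is low on replicate 3 (-1.14).

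Taken as a group of 9, 8 genes had a difference below 0, against 57.2% of all 23410 tested probe sets, and the median difference was -0.36, against -0.036 over all tested probe sets. That median was -0.58 without DN-Clim replicate 2 and -0.21 with DN-Clim replicate 3 alone. In the fit with all 6 arrays 1 of the 9, Ctla2a, was past the adjusted threshold of 0.05, as were 0.0128% of the tested probe sets. Quantile normalization, median centring, the lens covariate, testing all probe sets of the table, or leaving out any array other than DN-Clim replicate 3 ended that call while the Ctla2a difference in these alternatives stayed between -2.02 and -1.83. In 3 of the 9, Ctla2a, Csta1 and Ctsh, every DN-Clim value was under every WT value, which held for 6.95% of the tested probe sets, and none had the opposite order, which held for 3.2%. Nothing is read from these counts, since the same contrast was in view when the genes were chosen. Without DN-Clim replicate 3, Ctla2a and Ctsk were past the threshold, where 2.06% of the tested probe sets were. With DN-Clim replicate 3 alone against WT, where this sample is assumed to vary like the WT samples, Ctla2a and Csta1 were, with 0.337% of the tested probe sets. Both subsets use the same 3 WT arrays and arrays that chose Ctla2a. Its differences there were -1.85 (SE 0.182) without replicate 3 and -2.03 (SE 0.208) with it alone.

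The profiles of the 9 genes were not alike. The closest pair was Cst6 and Ctsb, with a root mean square difference of 0.18 over the 6 arrays, followed by Cst6 and Ctsl with 0.19. The pair farthest apart was Ctsc and Ctsk, with 1.21. Ctla2a was closest to Csta1, at 0.60, and Ctsl, the protease related to it, stood at 0.89 from it. Csta1 had no close match: its nearest genes, Prl2c5 of the prolactin family and Cldn8, were both at 0.47.

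The wider pathway was described by lists holding 115 further genes, of which 102 had a probe set of their own. None of the 102 passed in limma, with a smallest adjusted p of 0.65, and 7 had an unadjusted p under 0.05, all of them lower in DN-Clim. Of all tested probe sets 5.94% had such a p, and 4.49% had it and were lower. The median difference of the 102 was -0.14, with 68 below 0, against 57.2% of all tested probe sets. Median centring of the arrays shifted all differences by 0.071 at the median, so list medians within that distance of 0 have no settled sign. In 12 of the 102 every DN-Clim value was under every WT value, against 6.95% of all tested probe sets, and the opposite order, which 3.2% of them had, was not seen.

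Among 14 other papain-like cathepsins and relatives the median difference was -0.083 and 10 were below 0. Ctsz, the carboxypeptidase cathepsin Z, read 9.07, 9.42 and 9.47 in DN-Clim and 9.74, 9.84 and 9.52 in WT (difference -0.37, adjusted p = 0.912), and Tinag, a relative without protease activity, differed by -0.29 (adjusted p = 0.999). Ctss, the cathepsin of antigen-presenting cells, which is named after its values were seen, was the member of this list with the largest difference, -0.60. It ranged from 6.92 to 9.03 in DN-Clim and from 7.91 to 8.89 in WT. The 5 other cathepsin-named proteases and legumain had a median of -0.067. The aspartic protease Ctsd read 10.99, 10.76 and 10.34 in DN-Clim and 11.01, 10.74 and 10.76 in WT (difference -0.14, adjusted p = 0.999).

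Of 17 other cystatins 13 were below 0, with a median of -0.18. The 2 with the smallest p were the stefins Csta2 and Stfa3 given above. Cstb, the ubiquitous stefin B, read 10.68, 10.75 and 10.97 in DN-Clim and 11.42, 11.17 and 11.21 in WT, with no overlap (difference -0.46, SE 0.182, adjusted p = 0.814). Of 6 further cathepsin inhibitors 3 were below 0. Serpinb6a, an intracellular serpin, read 9.29, 9.05 and 9.54 in DN-Clim and 9.97, 9.99 and 9.89 in WT. Its difference of -0.66 (SE 0.19) came with the smallest p of the 102 genes and an adjusted p of 0.65. Serpinb3c differed by 0.35 (adjusted p = 0.968).

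No gene of the lysosome lists passed. Of 19 lysosomal hydrolases 16 were below 0, with a median of -0.32, the lowest among the pathway lists, where that of the 9 genes was -0.36. In 4 of the 19 every DN-Clim value was under every WT value, against 6.95% of all tested probe sets. Lipa had the largest difference of this list, -0.73, with deviations of -2.26, 0.058 and -0.0033 on DN-Clim replicates 1, 2 and 3. Fuca1, the lysosomal fucosidase, read 9.82, 10.12 and 9.37 in DN-Clim and 10.22, 10.51 and 10.28 in WT (difference -0.57, adjusted p = 0.818), and Arsb, an arylsulfatase, differed by -0.53 (adjusted p = 0.859). Of 12 sorting and membrane genes 9 were below 0 (median -0.16). Igf2r, the receptor that carries mannose 6-phosphate enzymes to lysosomes, read 8.96, 8.67 and 8.91 in DN-Clim and 9.74, 9.15 and 9.30 in WT (difference -0.55, adjusted p = 0.796), and Lamp2, a lysosomal membrane protein, differed by -0.38 (adjusted p = 0.891). For the vacuolar ATPase, which acidifies lysosomes, the median was 0.070, with 10 of 14 subunits above 0, while on DN-Clim replicate 3 alone 13 of the 14 were below the WT mean. Atp6v0e differed by -0.52 (adjusted p = 0.824) and Atp6v1b2 by 0.60 (adjusted p = 0.897), and on DN-Clim replicates 1, 2 and 3 the mean deviation of the subunits was 0.069, 0.35 and -0.24. In the barrier list, 4 of 6 were below 0 (median -0.14). Sprr1a, a cornified envelope precursor, differed by -0.40 and the transglutaminase Tgm5 by -0.14, both with an adjusted p of 0.999. Mcpt4, a mast cell protease among the cathepsin C substrates, differed by -0.28 (adjusted p = 0.999).

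**Figure D4:**
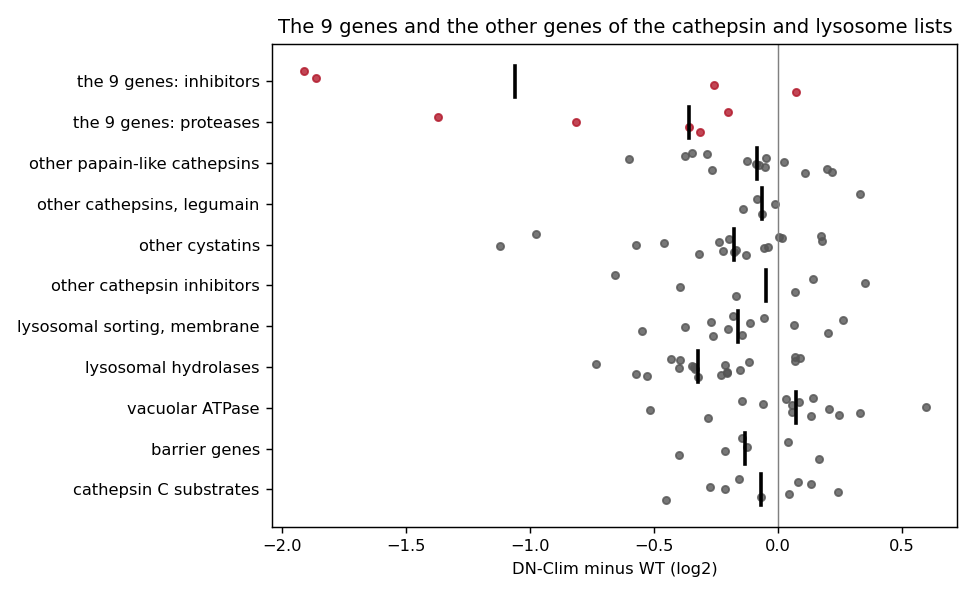
DN-Clim minus WT in log2 units (horizontal axis) for each of the 9 genes (red) and for the other genes of each list (grey), with 1 point per gene and a black bar at the list median. The lowest points are Ctla2a and Csta1 (-1.91 and -1.86), and the medians of the other lists lie between -0.32 and 0.070.

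Markers of cell types in which these genes are known were read on the same arrays. Of 10 vascular endothelial markers 9 were below 0, and in 6 every DN-Clim value was under every WT value. Of all tested probe sets 57.2% were below 0 and 6.95% had that order. Kdr was the 1 marker of this list above 0 (difference 0.39). The summed intensity of the 10 was 3171 to 4097 in DN-Clim and 5735 to 5937 in WT. The mean deviations on DN-Clim replicates 1, 2 and 3 were -0.73, -0.99 and -0.63, so that this list, like Ctla2a, was low on all 3 arrays. Emcn, the endomucin of venous and capillary endothelium, fell furthest, at 7.31, 7.39 and 7.68 in DN-Clim and 9.82, 9.74 and 10.14 in WT (difference -2.44, SE 0.198, adjusted p = 0.0113), a call that was lost with the lens covariate, with all probe sets of the table and without any 1 array other than DN-Clim replicate 3, since 0 probe sets passed in each of these. Of 12 macrophage markers all were below 0 and 6 did not overlap. Their summed intensity was 2042 to 2379 in DN-Clim and 2852 to 3603 in WT. The part of either list in the values of Ctla2a, Csta1 or Ctsh was not tested.

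Mast cells and T cells are those in which CTLA2A is best known. Of 7 mast cell markers 4 were below 0, and Cpa3, the carboxypeptidase of mast cells, was the 1 that did not overlap, at 8.63, 8.22 and 8.56 in DN-Clim and 9.71, 9.11 and 9.54 in WT (difference -0.99, adjusted p = 0.512). The 3 above 0 were Kit (0.0037), Hdc (0.16) and Ms4a2 (0.17). The summed intensity of the list was 1772 to 1975 in DN-Clim and 2012 to 2671 in WT. That sum is weighted to the brightest genes, Cpa3 among them, and was not taken without Cpa3. Of 7 T and NK cell markers 3 were below 0, and the sums, 1011 to 1772 in DN-Clim and 1242 to 1292 in WT, overlapped. None of the marker probe sets was listed at 0, and the lowest intensity among the mast, T and NK cell markers was 45.7. A value above 0 does not show that a gene was detected. The placental cathepsin genes Ctsj and Ctsll3 had WT means of 7.78 and 7.41, and Cd3g, Hdc and Ms4a2 had 6.62, 6.92 and 7.41. Differences of such dim markers are uncertain, while Cpa3 and Kit were brighter (WT means 9.46 and 9.36). Of 9 corneal epithelial markers 8 were below 0, with mean deviations of -0.41, -0.71 and 0.042 on DN-Clim replicates 1, 2 and 3. Of 7 retina and pigment epithelium markers 6 were above 0, with mean deviations of 0.61, 0.83 and 0.14. DN-Clim replicate 3 stood above the WT mean in neutrophil markers, with a mean deviation of 0.50 over 8 genes, while DN-Clim replicates 1 and 2 were at -0.12 and -0.37. That was not particular to neutrophil markers. On the same array T and NK cell markers were at 0.43 and osteoclast markers at 0.31, while macrophage and mast cell markers were at -0.52 and -0.093. This array also had the highest median intensity, 280.9. Over 7 skeletal muscle markers the mean deviations of DN-Clim replicates 1, 2 and 3 were 0.51, 0.31 and 0.82. Yet 3 of these 7 were below 0 in difference, and the median difference was 0.019. On DN-Clim replicate 2, 5 of the 7 were below the WT mean. The part of these lists in the values of the 9 genes was not tested.

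**Figure D5:**
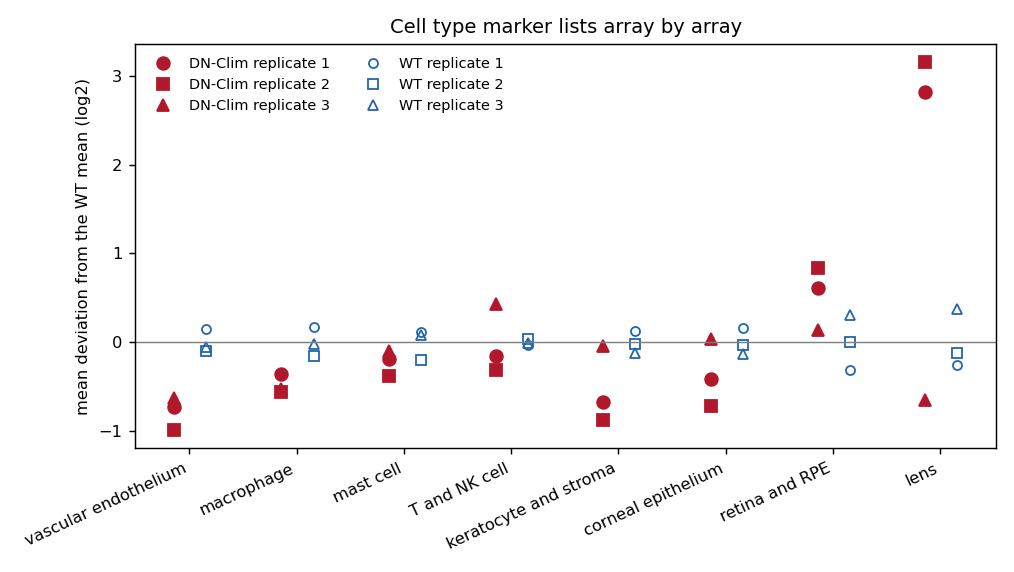
Mean deviation from the WT mean in log2 units (vertical axis) of 8 cell type marker lists (horizontal axis) on each DN-Clim array (filled red) and each WT array (open blue). Endothelial and macrophage markers are low on all 3 DN-Clim arrays, keratocyte and epithelial markers on replicates 1 and 2, and lens markers are high on replicates 1 and 2 (2.81 and 3.15).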

How the data were processed

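The authors deposited probe set intensities on a linear scale, made with Affymetrix Expression Console 1.1 and PLIER per the submitters' processing notes; how background, scaling and offset were set is not stated there. Per the labels' protocols, total RNA of dissected corneas was amplified and labelled with NuGEN kits. The table held 35557 probe sets. A platform table paired 21789 with 1 symbol and 1621 with several, from which no gene is named; 12147 are unnamed here. Intensities were taken as log2(intensity + 16) without further normalization, and the 23410 paired probe sets were fitted with limma 3.58.1 in R 4.3.3 (lmFit, eBayes) for the difference DN-Clim minus WT, and p-values were adjusted over all of them by Benjamini-Hochberg. The fit was tested on simulated data. All adjusted p-values are limma's. The number of arrays limits the precision. The 9 genes and all lists were chosen with earlier results of these data known. The text names the 9 genes, each pathway list's passing genes and the 2 with its smallest p-values, and the closest profiles (5 for Ctla2a, 2 for each other gene, without predicted loci and olfactory receptors). Other names were added after their values were seen. Promoters were compared with Biopython 1.88. Alternatives were other offsets, normalizations, filters, priors, array weights (gene by gene, since the REML estimate did not converge), a replicate block, a lens covariate and left-out arrays.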

Additional observations from a re-analysis of the deposited data

How the results depend on the processing

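The difference of Ctla2a lay between -2.04 and -1.60 in all 17 alternatives and kept its call in 8, and that of Csta1 lay between -2.66 and -1.32, of Ctsh between -0.95 and -0.56, of Ctsb between -0.49 and -0.022, and of Ctsk between -2.05 and -0.010. Of the 9 genes, 0 passed with quantile normalization, median centring, all probe sets of the table, or the lens covariate (4 had an unadjusted p under 0.05 in each), 4 passed with array weights and 2 with DN-Clim replicate 3 alone. Leaving out single arrays gave 0 to 2, with 0 for each of the 5 arrays other than DN-Clim replicate 3 (3 or 4 at an unadjusted p under 0.05). Of all 23410 tested probe sets, 638 to 1240 had an unadjusted limma p under 0.05 with 1 of these 5 arrays left out. With quantile normalization and median centring 1492 and 1312 did. Over all probe sets 3 passed in limma, against 1 with quantile normalization, 0 with all probe sets of the table or the lens covariate (1817 and 3218 at an unadjusted p under 0.05), 5 with a trended robust prior, 2059 with array weights, 79 with DN-Clim replicate 3 alone and 0 to 483 with single arrays left out. Of the pathway genes 12 passed with array weights, 1 with DN-Clim replicate 3 alone (Stfa3), and 0 to 1 with single arrays left out (Csta2, without DN-Clim replicate 3), against 0. The median difference of the 9 genes, -0.36, ran from -0.58 to -0.36 with single arrays left out and moved most without DN-Clim replicate 2; it was -0.21 with DN-Clim replicate 3 alone. Signs turned for Cst3 with the lens covariate (-0.17), with DN-Clim replicate 3 alone (-0.21), without DN-Clim replicate 2 (-0.12) and without WT replicate 1 (-0.016; up to 0.21, without DN-Clim replicate 3), for Cst6 (0.090) and Ctsl (0.093) with DN-Clim replicate 3 alone, and for Ctsc without DN-Clim replicate 3 (0.030). Same-numbered samples did not deviate together (correlations of 0.017, -0.21 and -0.44), so the numbers were not taken as pairs; with the replicate number as a block 9 probe sets and 1 of the 9 genes passed. The cause of these changes was not tested. No gene of the 9 had a further probe set to try.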
